A study of Mus musculus with 9 samples.

Results

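The gene expression of primed mEpiSCs was compared with that of naïve mESCs at passage 5 (P5), over all genes and with gene lists of signalling, lineage, immune, metabolic and growth functions. The comparison used 4 of the 9 RNA-seq libraries of the study, 2 naïve and 2 primed, taken by the state and passage in their labels. Naïve mESCs (mouse embryonic stem cells, the OG2 line from C57 x CBA mice) were kept in S/L medium, which contains serum and the cytokine LIF. Primed mEpiSCs (cells with epiblast stem cell features) were converted from naïve mESCs by culture in F/A medium, which contains bFGF and Activin A. Both states carried a GFP gene driven by the distal promoter of Oct4, and both grew on mitomycin C-treated mouse embryonic fibroblasts (MEFs) as feeder cells. The same strain gave 1 MEF library, which served here only as the reference for feeder RNA, and the study's other 4 libraries were naïve and primed cells at P15. The 2 libraries of a state were described as biological repeats of 1 line, so p-values measure the spread between these repeats and not that between lines.

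Naïve cells stand for the epiblast of the blastocyst before implantation, are held there by LIF acting through STAT3 with a network of Klf, Esrrb and Tfcp2l1 factors, and can enter all embryonic lineages. Primed cells stand for the epiblast after implantation, depend on FGF and on Activin or Nodal signals, and lie close to the point at which streak, germ layer and neural genes switch on. Medium and state changed together in this design, so the effect of serum and LIF against bFGF and Activin A on a gene and the effect of the state itself cannot be told apart.

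The 4 libraries held between 15918658 and 20985136 counts, and 3 counts, the limit that a count of 0 allows, equalled 0.148 to 0.166 CPM (counts per 1000000 counts of the library), which covers counting error only. CPM were scaled by TMM over the 9 libraries and are not divided by gene length, so a level is compared only between libraries for the same gene or the same set of genes. The repeats lay close together, with a biological coefficient of variation of 3.26%. In libraries of mixed cells, fewer cells of a type and less RNA per cell cannot be told apart.

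Called genes had an adjusted p under 0.01 and a change of at least 2-fold (quasi-likelihood test of edgeR, adjusted by Benjamini-Hochberg over 16482 genes), and a gene is said to have passed the test at an adjusted p under 0.01 whatever the size of its change. Of all genes 3680 (22.3%) were called, 2222 (13.5%) higher and 1458 (8.85%) lower in primed cells, and these shares are the background against which the counts of each list are read. At any size of change, 5147 genes (31.2%) passed the test as higher and 5127 (31.1%) as lower. Genes thus moved in both directions. The median log2 fold change of all genes was 0.01, a centre that TMM scaling places near 0 by design. With library size alone as the scaling this median moved to 0.21, and the higher genes made up 72.6% of those called, in place of 60.4% with TMM.

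The labels were checked against markers. Of 22 factors and other genes of the naïve state, 20 were called lower and none higher in primed cells, and of 21 genes of the post-implantation epiblast 8 were called higher and 4 lower. Feeder cells were checked with 30 fibroblast markers, none of which was at 0 in any library. Their summed level was 14778 and 14727 CPM in the naïve libraries, 8474 and 8314 CPM in the primed libraries and 94304 CPM in MEFs, so the sum was lower in both primed libraries, and 11 of the markers were called lower and 4 higher. Decorin (Dcn), a matrix proteoglycan on that list, had 36.9 and 43.1 CPM in naïve cells and 465 and 457 CPM in primed cells, above the 211 CPM of MEFs, and the stromelysin gene Mmp3, also on the list, was at 0.13 CPM in MEFs. The MEF level stands beside the genes below where it bears on them, and the part of feeder RNA in each difference was not tested.

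Over all genes tested, large increases outnumbered large decreases. At least 4-fold changes were seen in 952 genes that were higher and 648 that were lower, and at least 16-fold changes in 222 and 104. The direction turned among the 1875 genes with a MEF level below 0.1 times that of the higher state. Of these, 354 were at least 4-fold higher and 447 at least 4-fold lower, and 524 were called higher and 667 lower. Genes entered this set through the level of their higher state, so the filter uses the compared levels and its counts are no independent result. A MEF level above 0.5 times that of the higher state was found for 1036 of the 2222 genes called higher and for 333 of the 1458 called lower, and the part of feeder RNA in this split was not tested. Only 1 gene, Dppa5c, a pseudogene that may share reads with its Dppa5 relatives, went from at least 5 CPM in naïve cells to at most 3 counts in both primed libraries, whereas 18 genes made the reverse step. Cer1, a secreted antagonist of Nodal, BMP and Wnt ligands, had no count in the naïve libraries or in MEFs and 209 and 210 CPM in the primed libraries, which is at least 1402-fold higher when the naïve level is set at 3 counts. Aplnr, the apelin receptor of early mesoderm, was 228-fold higher with the naïve level set at 3 counts. Tph1, a tryptophan hydroxylase of serotonin synthesis, was 170-fold higher at the same setting. Both genes had 1 count in each naïve library. The forkhead gene Foxd4 had 0 and 0 counts in naïve cells and 155 and 171 counts in primed cells, and Foxb1, another forkhead gene, had 2 and 0 counts against 101 and 94. Samd3, with 0 and 2 naïve counts, and Frmpd2, with 3 and 0, also belonged to these 18 genes. They were 123-fold and 117-fold higher with the naïve level set at 3 counts. The limit of 3 counts holds for a count of 0, so the folds of Aplnr, Tph1, Samd3 and Frmpd2 are not lower bounds.

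Among protein-coding genes of at least 20 CPM and with a MEF level below 0.1 times that of the higher state, the 15 with the largest change in each direction were compared one by one. Shh, the hedgehog ligand of the node and notochord, had 0.05 and 0.25 CPM in naïve cells and 62.2 and 60.1 CPM in primed cells (log2 fold change 8.65 ± 0.18, SE). Slc39a8, an importer of zinc and manganese, had 2.88 and 2.77 CPM against 240 and 245 CPM (6.45 ± 0.07, SE). Cyp26a1, which degrades retinoic acid, had 0.70 and 0.54 CPM against 102 and 106 CPM (7.41 ± 0.12, SE). In all 3 genes both primed libraries stood far above both naïve ones, and MEFs had 0.17, 4.98 and 0.81 CPM. Mmp3 had 17.5 and 19.2 CPM in naïve cells against 747 and 741 CPM in primed cells, a rise of 5.37 on the log2 scale, and the secreted protease inhibitor gene Slpi rose by 6.63. In the other direction, Mymx, which encodes the fusion peptide myomixer, changed by −4.05, Nphs1 (nephrin) by −3.80, the secreted phospholipase gene Pla2g1b by −3.47 and the steroid dehydrogenase gene Hsd17b14 by −3.44. The groups did not overlap in any of these 30 genes, which the rule that chose them already implies.

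**Figure D1:**
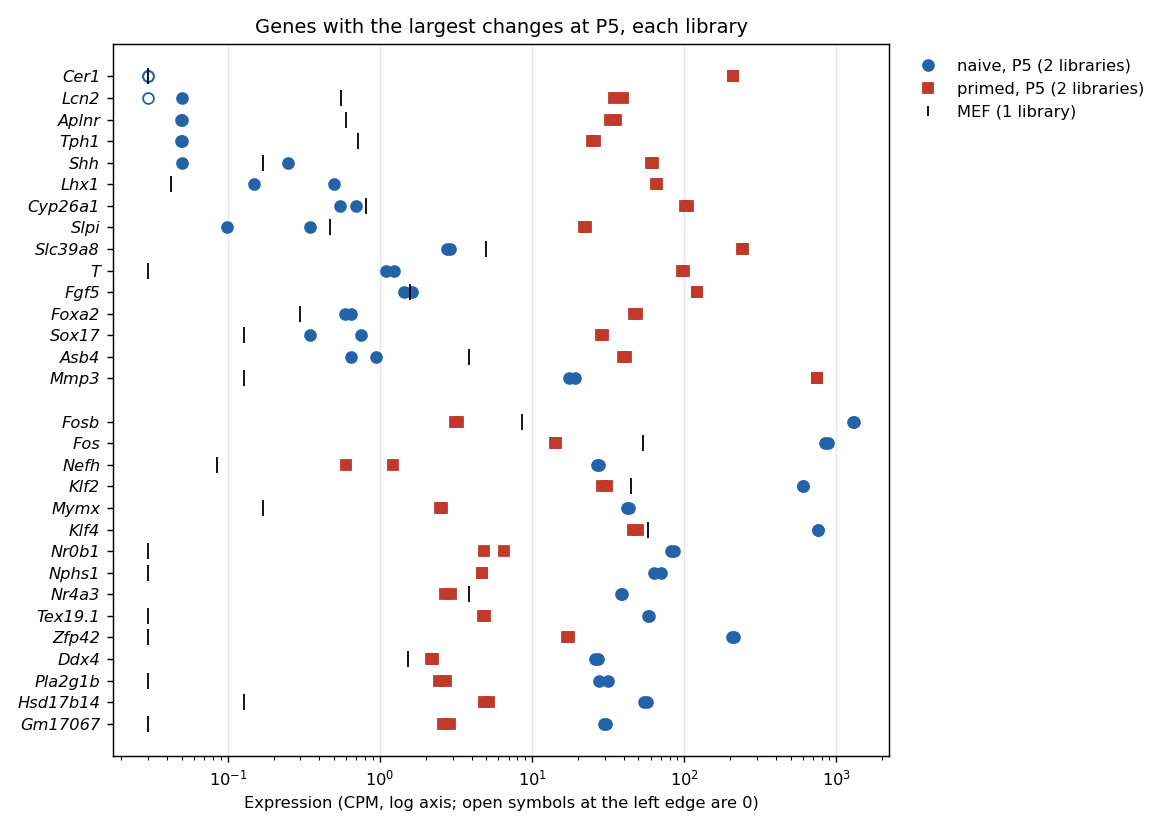
Expression in CPM on a log axis of the 15 protein-coding genes with the largest increase (upper block) and the 15 with the largest decrease (lower block) at P5, with 1 point per library (blue circles, naïve; red squares, primed) and a black tick for the MEF library. The 2 points of a state lie close together next to the distance between the states, as in Slc39a8 at 2.88 and 2.77 against 240 and 245 CPM.

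The pluripotency network moved down as a whole but unevenly. All 12 naïve transcription factors passed the test as lower, 11 of them at least 2-fold, and their summed level was 2827 and 2781 CPM in naïve cells and 357 and 356 CPM in primed cells. Tfcp2l1, a factor that LIF maintains, had 230 and 231 CPM in naïve cells against 38.2 and 36.4 CPM in primed cells (log2 fold change −2.60 ± 0.05, SE). Nr5a2, a nuclear receptor that binds the Oct4 locus, had 44.3 and 47.4 CPM against 5.22 and 5.16 CPM, and Prdm14, which represses FGF receptor genes, had 12.7 and 13.2 CPM against 1.44 and 1.94 CPM. The primed values of each of these genes were well under the naïve ones and still above the MEF values, which were 0.85 CPM or less. Klf5 fell by 1.35 on the log2 scale, and Pecam1, an adhesion molecule of naïve colonies, fell by 2.48.

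The shared factors, which both states express, also fell. Pou5f1 (Oct4) had 714 and 710 CPM in naïve cells against 211 and 211 CPM in primed cells, Sox2 had 421 and 390 CPM against 161 and 165 CPM, and Nanog had 384 and 381 CPM against 92.6 and 93.7 CPM. Their log2 fold changes were −1.72 ± 0.03, −1.28 ± 0.04 and −2.01 ± 0.04 (SE), and MEFs had at most 1.40 CPM of any of them. Of the 22 genes of this list, 12 were called lower and none higher. The calls were unevenly spread, with 4 of 11 transcription factors, 1 of 4 RNA-binding genes and all 7 genes of the Dppa and related group. That group includes Dnmt3l, which the paper names as a naïve marker, so its fall is not one of shared factors alone. Its 7 genes summed to 3988 and 3993 CPM in naïve cells and 586 and 594 CPM in primed cells. Lin28a, an RNA-binding protein that blocks let-7 maturation, went the other way and rose by 0.33, with 380 and 374 CPM against 461 and 464 CPM.

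Genes of the primitive streak and mesendoderm had the highest share of increases among the 5 lineage lists described here, 22 of 30 tested genes called higher and 1 lower. Gata4, Gata6, Sox17 and Pdgfra stood on this list and on that of the primitive endoderm, and Cdx2 and Hand1 on this list and the trophoblast list. The counts of these lists are therefore not separate results. The median of the list was 2.74 on the log2 scale, and its 33 genes summed to 267 and 264 CPM in naïve cells, 1854 and 1842 CPM in primed cells and 345 CPM in MEFs. Foxa2, the pioneer factor of node and endoderm, had 0.65 and 0.59 CPM in naïve cells against 49.2 and 47.0 CPM in primed cells. Sox17, an endoderm factor, had 0.75 and 0.35 CPM against 29.2 and 28.3 CPM, and Eomes, a T-box factor of the anterior streak, had 6.22 and 6.68 CPM against 35.8 and 42.3 CPM. Gsc, the organizer homeobox gene, had 0.55 and 0.74 CPM against 17.0 and 14.1 CPM, and Mixl1, a streak homeobox gene, had 0.15 and 0.10 CPM against 2.44 and 2.61 CPM. All primed values of these genes exceeded the naïve ones, which the rule that chose Foxa2 and Sox17 already implies. None had more than 0.60 CPM in MEFs. Amot, a scaffold that holds YAP outside the nucleus, had 17.1 and 17.5 CPM in naïve cells, 574 and 575 CPM in primed cells and 59.5 CPM in MEFs. Cdx2, a factor of posterior mesoderm and trophectoderm, did not pass the test, with 0.60 and 0.74 CPM against 0.35 and 0.39 CPM.

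Other lineages were mixed. Of 11 tested genes of the primitive endoderm, 7 were called higher and 3 lower. Gata4 had 4.87 and 5.20 CPM in naïve cells against 35.2 and 36.1 CPM in primed cells, and Gata6 had 5.37 and 6.53 CPM against 24.5 and 24.2 CPM, both being endoderm zinc finger factors. The MEF library had 11 CPM of Gata4 and 38.8 CPM of Gata6, more than the primed cells in the second case. Lama1, the laminin chain of the early basement membrane, went down from 79.8 and 77.7 CPM to 26.6 and 24.7 CPM, and the endocytic receptor gene Cubn fell by 4.16. Of 27 neural genes, 13 were called higher and 5 lower. Six3, an anterior forebrain factor, had 0.25 and 0.10 CPM against 10.5 and 11.8 CPM, and Hesx1, of the anterior neural plate, had 2.09 and 2.23 CPM against 20.7 and 18.7 CPM. Pax6, a later neural factor, had 4.28 and 4.90 CPM in naïve cells against 0.89 and 0.44 CPM in primed cells, so neural genes did not share 1 direction. In the trophoblast list 3 of 11 genes were called higher, among them Gata3 (log2 fold change 2.34), and 2 lower, among them Tfap2c (−1.56), and the median was −0.19 and changed sign to 0.02 with library size alone as the scaling.

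**Figure D2:**
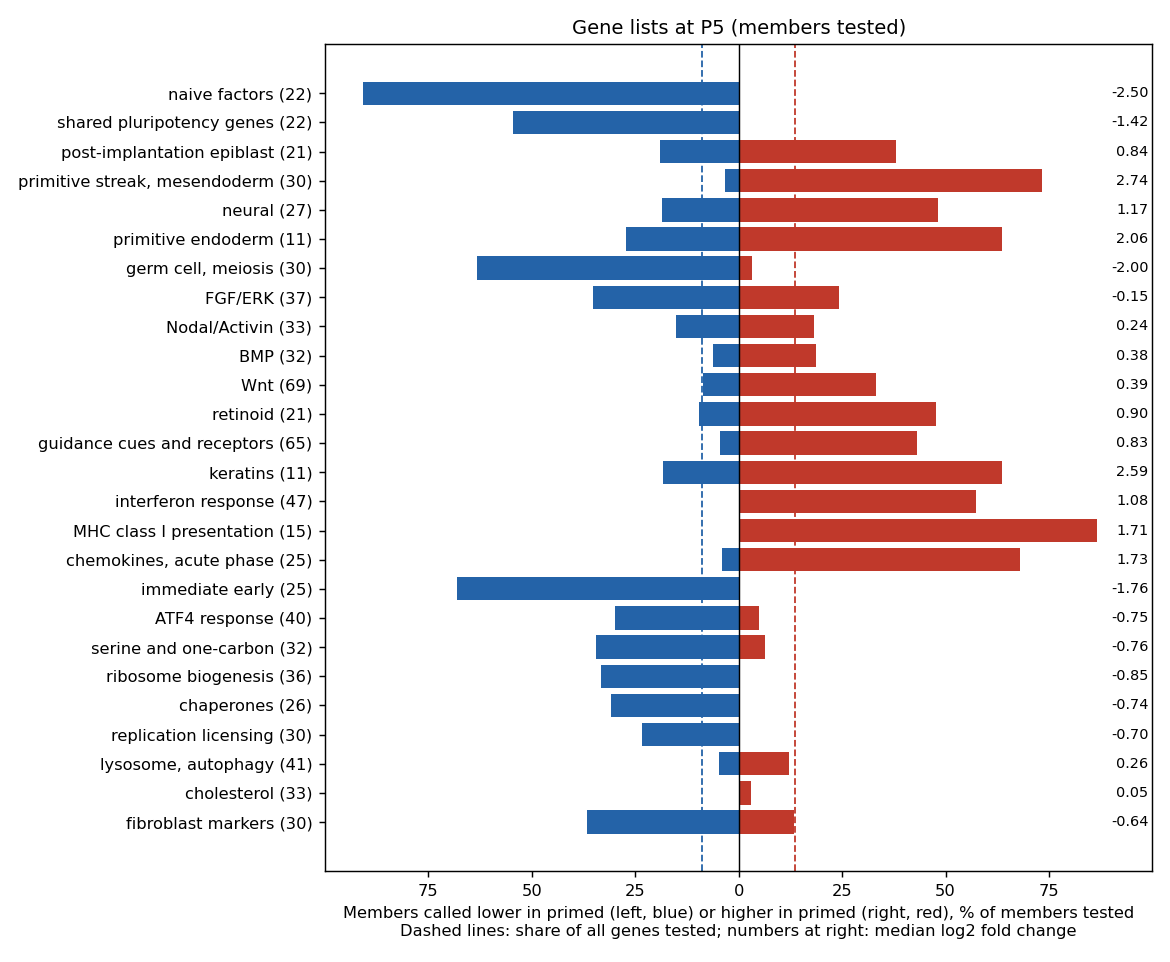
Share of the tested members of each gene list that were called lower (blue, to the left) or higher (red, to the right) in primed cells at P5, with the number tested in parentheses and the median log2 fold change at the right. Dashed lines mark the shares of all genes, 8.85% lower and 13.5% higher, and the naïve list reaches 90.9% lower and the MHC class I list 86.7% higher. With library size alone the FGF/ERK median turns from −0.15 to 0.05, and the cholesterol median, 0.05, turns to just below 0 without primed replicate 1.

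Signalling genes were ordered by role. In the FGF and ERK list, 9 of 37 genes were called higher and 13 lower. Fgf4, the ligand that naïve cells secrete, had 166 and 158 CPM in naïve cells against 39.9 and 43.8 CPM in primed cells, and Fgf17, a related ligand, fell by 2.65 on the log2 scale. Fgf8, the ligand of the streak, had 1.74 and 1.83 CPM against 26.8 and 25.3 CPM. Fgf4 and Fgf8 were thus high in different states. The groups did not overlap, which the choice of Fgf8 for the size of its change already implies. Among receptors, Fgfr2 rose by 1.09, Fgfr3 by 2.18 and Fgfr1, with 147 and 147 CPM against 217 and 207 CPM, by 0.56. The feedback genes that ERK switches on split. Dusp6, a phosphatase of ERK, had 115 and 113 CPM against 220 and 210 CPM (log2 fold change 0.95 ± 0.04, SE), and Dusp4 and Spry1 rose by 0.75 and 0.66. Dusp1 had 504 and 499 CPM against 54.4 and 53.9 CPM, and Spry2 and Spry4, which restrain receptor signalling, changed by −1.13 and −1.40. The ETS factors downstream of FGF split in the same way, with Etv5 at 390 and 375 CPM against 140 and 135 CPM, Etv4 down by 1.35 and Etv1 up by 2.16.

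In the Nodal and Activin list 6 of 33 genes (18.2%) were called higher and 5 (15.2%) lower, against 13.5% and 8.85% of all genes. Nodal itself, the ligand of the epiblast, had 75.8 and 73.5 CPM in naïve cells against 32.1 and 28.6 CPM in primed cells, and its co-receptor Tdgf1 had 1122 and 1084 CPM against 229 and 236 CPM. The second co-receptor gene of that family, Cfc1, had 0.20 and 0 CPM against 12.1 and 11.8 CPM, so the 2 co-receptors moved in opposite directions. Lefty2, a feedback inhibitor, had 137 and 132 CPM against 327 and 323 CPM, whereas Lefty1 had 235 and 234 CPM against 193 and 205 CPM. Gdf3, a partner ligand, fell by 3.30, Pcsk6, a protease that processes Nodal, by 2.68 and the inhibitory Smad7 by 1.41. No gene of the 8 Smads and partners was called in either direction, although 4 passed the test as higher and 3 as lower.

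In the Wnt list 23 of 69 genes (33.3%) were called higher and 6 (8.70%) lower, and in the hedgehog list 4 of 14 were called higher and 1 lower. The BMP list had 6 of 32 (18.8%) higher and 2 (6.25%) lower, shares near those of all genes (13.5% and 8.85%). Bmp2 had 2.14 and 2.87 CPM in naïve cells against 79.7 and 68.6 CPM in primed cells (log2 fold change 4.92 ± 0.11, SE). Its extracellular antagonist Nog had 1.09 and 1.39 CPM against 38.0 and 33.0 CPM, so that ligand and antagonist rose together. The BMP receptors and Smads had no called gene among 8, although 5 passed the test as higher and none as lower. Of the Id genes that BMP induces, Id2 had 43.6 and 41.6 CPM against 11.1 and 9.82 CPM. Id1 had 49.1 and 47.7 CPM against 43.8 and 44.3 CPM and did not pass the test. Among Wnt antagonists, Dkk1 had 0.55 and 0.54 CPM against 37.0 and 39.0 CPM and Sfrp5 had 1.34 and 0.99 CPM against 31.6 and 30.5 CPM. The Wnt receptor partner Lgr5 rose by 5.76, though MEFs had 66.2 CPM of it against 9.14 and 9.98 CPM in primed cells. Porcn, the acyltransferase that Wnt ligands need for secretion, had 23 and 22.3 CPM against 6.26 and 6.43 CPM, and Wnt3, a streak ligand, had 1.44 and 1.34 CPM against 5.62 and 2.94 CPM. Wnt3 was no longer called without primed replicate 1, the library with the higher value. Axin2, a target gene read as a sign of canonical signalling, had 14.9 and 14.4 CPM against 13.1 and 13.5 CPM and did not pass the test, while Sp5, another target, had 3.53 and 2.87 CPM against 11.8 and 10.6 CPM. In the hedgehog list, the receptor and target gene Ptch1 had 183 and 173 CPM against 333 and 312 CPM and the effector gene Gli1 had 25.7 and 33.0 CPM against 17.3 and 17.2 CPM, so that with Shh far higher these 2 target genes moved in opposite directions.

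Retinoid genes and guidance cues were more often higher than lower in primed cells. Of 21 retinoid genes 10 were called higher and 2 lower. Besides Cyp26a1, the other 2 retinoic acid hydroxylases rose, Cyp26b1 from 7.21 and 6.53 CPM to 45 and 43.4 CPM and Cyp26c1 from 0.05 and 0.05 CPM to 7.35 and 5.55 CPM, and MEFs had 55.6 CPM of the first and 0.04 CPM of the second. Rbp4, the retinol carrier, rose by 3.21. Stra8, a gate of meiosis that retinoic acid induces, had 8.25 and 8.06 CPM in naïve cells against 0.35 and 0.11 CPM in primed cells. All 3 hydroxylases were thus higher, and Stra8 lower, in both primed libraries, and retinoic acid signalling itself was not tested. Of 65 ephrin, semaphorin, slit and netrin genes and their receptors, 28 were called higher and 3 lower. The 70 genes of that list summed to 2051 and 2056 CPM in naïve cells, 3344 and 3247 CPM in primed cells and 4876 CPM in MEFs, and only 4 of the 65 had a MEF level below 0.1 times that of the higher state. Sema7a, a membrane-anchored semaphorin, had 12.8 and 14.2 CPM against 105 and 109 CPM, Sema6d rose by 3.24 and Sema3b by 2.87, and Nrp2, a semaphorin receptor, by 1.58. Epha2, an Eph receptor of the early embryo, was an exception, at 285 and 274 CPM against 131 and 125 CPM.

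**Figure D3:**
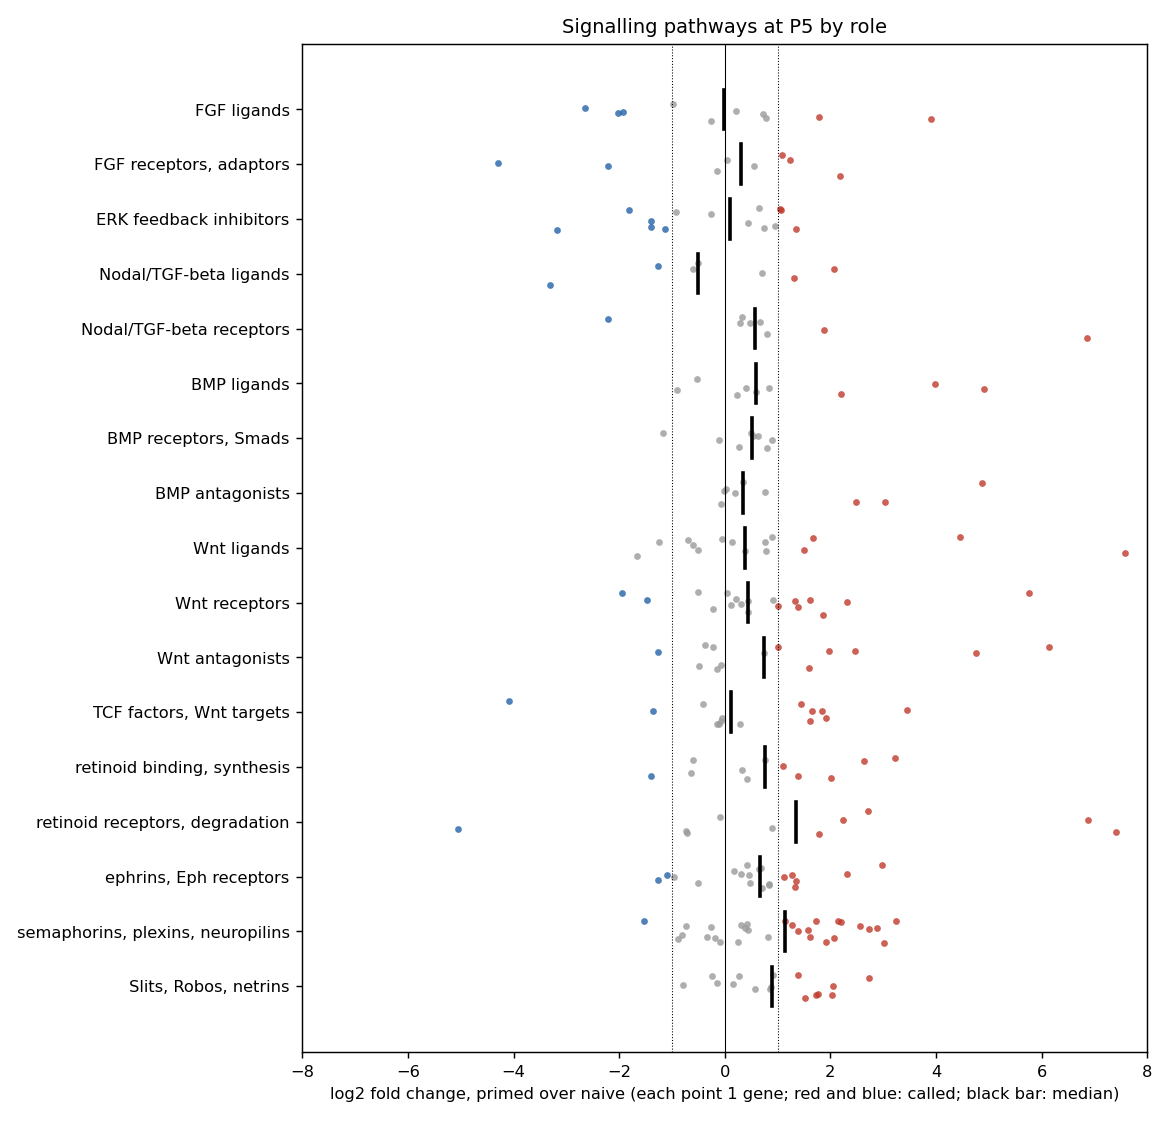
Log2 fold change, primed over naïve, of every tested member of the signalling lists at P5, split by role, with called genes in red (higher) and blue (lower), other genes in grey and the median as a black bar. Dotted lines mark 2-fold. None of the 8 BMP receptors and Smads is called, though 5 passed the test as higher, while 3 of 9 BMP ligands and 3 of 9 BMP antagonists are called higher.

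In the LIF and STAT3 list 4 of 27 genes (14.8%) were called higher and 2 (7.41%) lower, shares near those of all genes (13.5% and 8.85%). Lif, the cytokine supplied to naïve cells, had 41.3 and 41.5 CPM in naïve cells against 105 and 109 CPM in primed cells, while its receptor gene Lifr fell by 0.94. Stat3, the transducer, had 135 and 134 CPM against 126 and 119 CPM and did not pass the test, and Pim2, a survival kinase gene, rose by 1.88. Ligand and receptor of that pathway thus moved in opposite directions. Of 17 insulin and IGF genes 8 were called higher and none lower. Irs4, an insulin receptor substrate, had 2.09 and 3.27 CPM against 36.8 and 39.4 CPM, with 0.04 CPM in MEFs, and Igf1r rose from 83.3 and 81.6 CPM to 169 and 168 CPM. Igf2, the fetal growth factor, had 25.3 and 24.9 CPM against 62.2 and 60.6 CPM and Igfbp3, which binds IGFs, 47.6 and 46.9 CPM against 269 and 273 CPM, but MEFs had 174 and 1051 CPM of these. In the Hippo list 3 of 27 genes (11.1%) were called higher, near the 13.5% of all genes, and none lower. Amot had the largest change, and the effector gene Yap1 was nearly level at 227 and 234 CPM against 253 and 262 CPM.

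Epithelial and surface genes changed by family. Simple epithelial keratins rose together, Krt8 from 58.9 and 61.0 CPM to 702 and 695 CPM, Krt18 from 42.6 and 42.8 CPM to 445 and 454 CPM, and Krt19 from 21.3 and 21.9 CPM to 263 and 271 CPM, with MEFs at 7.87 CPM or less. Of 11 tested keratins 7 were called higher and 2 lower, the latter being Krt42 (log2 fold change −2.77) and Krt17 (−1.84), and the whole family summed to 168 and 178 CPM in naïve cells and 1460 and 1470 CPM in primed cells. The cadherins did not show an exchange of one for the other. Cdh1 (E-cadherin) had 424 and 425 CPM against 488 and 474 CPM, a small rise of 0.21, and Cdh2 (N-cadherin) had 30.2 and 34.9 CPM against 88.6 and 90.3 CPM, with 134 CPM in MEFs. Epcam, an epithelial adhesion molecule, was at 235 and 253 CPM against 234 and 234 CPM, a log2 fold change of −0.03 that did not pass the test and turned positive with library size alone. Vim, a mesenchymal intermediate filament and abundant in MEFs, fell by 0.55. At the surface, Cd24a, a surface glycoprotein, had 47.4 and 42.2 CPM against 288 and 276 CPM, the integrin gene Itga2 had 3.88 and 3.86 CPM against 38.2 and 35.2 CPM, and Alpl (alkaline phosphatase, a naïve marker) had 125 and 132 CPM against 23.3 and 22.9 CPM.

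Several secreted proteases that cut matrix were higher in primed cells. Mmp9 (gelatinase B) had 7.56 and 10.1 CPM in naïve cells, 252 and 251 CPM in primed cells and 10.6 CPM in MEFs, and Mmp10 had 2.39 and 2.57 CPM, 41.0 and 40.8 CPM and 0.09 CPM. Of 20 proteases and inhibitors 8 were called higher and 3 lower. The smooth muscle actins Acta2 and Actg2, both abundant in MEFs at 4554 and 479 CPM, changed by −1.80 and −4.52, and both decreases lie among genes that feeder cells express.

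Immune genes were higher in primed cells across several lists. Interferons act through STAT and IRF factors on a DNA element called the ISRE, and Nlrc5 switches on MHC class I genes, which present peptides at the cell surface. Of 47 interferon pathway genes 27 were called higher and none lower, and 42 passed the test as higher at any size, against 2 as lower. Of 15 genes of MHC class I presentation, 13 were called higher and all 15 passed the test as higher, and they summed to 631 and 631 CPM in naïve cells, 2164 and 2175 CPM in primed cells and 516 CPM in MEFs. H2-K1 had 68.6 and 65.3 CPM in naïve cells, 386 and 366 CPM in primed cells and 15.4 CPM in MEFs (log2 fold change 2.52 ± 0.04, SE, edgeR adjusted p = 1.26e-28). B2m, the invariant light chain, had 283 and 292 CPM against 748 and 781 CPM, and Nlrc5 itself had 2.34 and 3.02 CPM against 14.1 and 15.9 CPM. The H2 genes are near-identical copies of each other, so reads may be split among them, while B2m and Nlrc5 have no such copies. Psmb8 and Psmb9, the catalytic subunits of the immunoproteasome, rose by 2.05 and 1.47 although 38 of 47 proteasome genes passed the test as lower.

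Within the interferon list, sensors and signalling genes had 8 of 16 called higher and the stimulated genes 19 of 31. Irf1, a factor induced by interferon gamma, had 32.8 and 30.2 CPM in naïve cells against 89.3 and 84.8 CPM in primed cells. Ifit3, an antiviral effector, had 18.0 and 17.2 CPM against 60.0 and 62.3 CPM, and Rtp4, another stimulated gene, had 7.21 and 9.0 CPM against 45.9 and 51.0 CPM. None of these was higher in MEFs than 20.7 CPM. The 2 states did not overlap, which the choice of Rtp4 for the size of its change already implies. The membrane proteins of the Ifitm family split, Ifitm1 going down from 82.5 and 85.7 CPM to 57.2 and 55.1 CPM and Ifitm2 by 0.33 on the log2 scale while Ifitm3 rose by 0.31.

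The promoters of 5 genes of these 2 lists are printed because they hold an ISRE-type match. Windows from 250 bases before to 50 bases after the start of each gene were searched on both strands for GAAA followed, after 2 bases of any kind, by a second GAAA, and the sequences, from RefSeq on GRCm38.p6, are given 5′ to 3′ on the strand of the gene with the matches in capitals (TTTC in place of GAAA where the match lies on the other strand).
Gbp7 (chr3:142530238-142530335, plus strand): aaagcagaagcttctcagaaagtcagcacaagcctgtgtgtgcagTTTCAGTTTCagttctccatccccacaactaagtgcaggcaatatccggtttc
Gbp3 (chr3:142559960-142560043, plus strand): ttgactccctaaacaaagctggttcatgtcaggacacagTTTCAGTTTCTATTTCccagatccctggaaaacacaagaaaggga
Gbp2 (chr3:142620559-142620658, plus strand): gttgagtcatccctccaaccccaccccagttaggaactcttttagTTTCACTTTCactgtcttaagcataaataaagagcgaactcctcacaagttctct
Ifit3 (chr19:34583362-34583461, plus strand): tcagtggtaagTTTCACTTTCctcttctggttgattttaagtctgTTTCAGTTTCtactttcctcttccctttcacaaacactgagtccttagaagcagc
H2-T23 (chr17:36032771-36032870, minus strand): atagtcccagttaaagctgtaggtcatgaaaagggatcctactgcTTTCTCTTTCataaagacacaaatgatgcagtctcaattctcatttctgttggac
The match was found in 16 of 36 interferon list genes with a promoter in the table (44.4%) and in 4 of 13 MHC class I genes (30.8%). Of all 32851 promoters 3.44% held it. Counted by gene, as in the lists, 3.99% of all genes and 3.61% of the genes tested held it in any of their promoters. Among the genes tested the share was 7.34% of those called higher, 3.62% of those called lower and 2.99% of the others. Gbp2, Gbp3 and Gbp7, which encode guanylate-binding proteins and lie close together on chromosome 3, rose by 1.93, 1.95 and 2.15 on the log2 scale. Genes with the match were not always called, as Ifit1 at 0.82 and Isg15 at 0.86 show, and a match is no evidence that a factor was bound.

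Chemokine and acute phase genes rose as well, 17 of 25 called higher and 1 lower. Ccl2, a monocyte chemokine, had 18.3 and 15.8 CPM in naïve cells, 292 and 294 CPM in primed cells and 30.5 CPM in MEFs. Complement C3 had 1.49 and 1.63 CPM against 86.9 and 83.9 CPM, and Saa3, an acute phase protein gene, 1.0 and 0.35 CPM against 24.6 and 20.4 CPM. The MEF library held 16.2 CPM of C3 and 0.85 CPM of Saa3, so both were higher in primed cells than in MEFs alone. Cxcr4, the chemokine receptor of endoderm, had 2.69 and 2.23 CPM against 20.2 and 17.0 CPM, while its ligand Cxcl12, at 471 CPM in MEFs, fell by 0.82. Whether the feeder cells under the 2 media express these genes differently was not tested, since the only MEF library was not tied to either medium.

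Immediate early genes, which growth factors and handling of cells switch on within minutes, were lower in primed cells. Of 25 genes 17 were called lower and none higher, with a median of −1.76, and they summed to 8262 and 8170 CPM in naïve cells and 1771 and 1784 CPM in primed cells. Egr1 had 1106 and 1091 CPM in naïve cells against 132 and 135 CPM in primed cells, and Jun had 732 and 720 CPM against 212 and 206 CPM. Atf3, a stress-induced repressor, had 138 and 144 CPM against 9.34 and 10.6 CPM. In each of these genes both naïve libraries were several times above both primed ones, and MEFs had 259, 136 and 15.7 CPM.

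Targets of ATF4, the factor that amino acid shortage and endoplasmic reticulum stress bring up, were lower in most cases. Of 40 genes 12 were called lower and 2 higher, and 34 passed the test as lower at any size against 4 as higher. Atf4 had 438 and 429 CPM in naïve cells against 138 and 139 CPM in primed cells (log2 fold change −1.61 ± 0.04, SE). Asns, asparagine synthetase, had 293 and 290 CPM against 106 and 106 CPM, and Chac1, which breaks down glutathione, had 25.5 and 25.4 CPM against 4.92 and 4.16 CPM. All 18 aminoacyl-tRNA synthetase genes passed the test as lower, from 4820 and 4840 CPM in sum to 2820 and 2738 CPM. Slc7a11, the cystine importer, ran against its group with 2.88 and 2.52 CPM in naïve cells, 75.4 and 82.4 CPM in primed cells and 25.3 CPM in MEFs.

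The promoters of Slc7a11 and of 4 genes of the list that fell are printed because they share the C/EBP-ATF type match while the genes moved apart. The match TGATGNAA was searched on both strands of the same windows (RefSeq, GRCm38.p6), and capitals mark it on either strand.
Slc7a11 (chr3:50443614-50443705, minus strand): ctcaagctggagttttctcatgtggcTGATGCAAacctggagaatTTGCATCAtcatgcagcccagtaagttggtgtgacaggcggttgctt
Atf3 (chr1:191183391-191183488, minus strand): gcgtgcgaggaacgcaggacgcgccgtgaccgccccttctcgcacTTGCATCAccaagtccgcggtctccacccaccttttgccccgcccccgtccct
Chac1 (chr2:119351004-119351101, plus strand): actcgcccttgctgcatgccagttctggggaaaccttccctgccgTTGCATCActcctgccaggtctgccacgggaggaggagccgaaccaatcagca
Asns (chr6:7693210-7693277, minus strand): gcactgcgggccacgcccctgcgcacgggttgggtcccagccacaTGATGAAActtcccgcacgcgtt
Aars (chr8:111033685-111033782, plus strand): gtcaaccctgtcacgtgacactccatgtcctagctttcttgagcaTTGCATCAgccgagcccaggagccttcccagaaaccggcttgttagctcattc
Of 29 genes of the ATF4 list with a promoter in the table, 13 (44.8%) held the match, 6 of them called lower, 2 higher and 5 neither. The share was 3.97% of all promoters and, counted by gene, 4.51% of all genes and 2.76% of the genes tested. Among tested genes it was 5.44% of those called lower, 3.38% of those called higher and 2.39% of the others. No gene of the serine and one-carbon list held it (0 of 26). The match thus stood in front of genes of both directions, and Slc7a11 carried it 2 times within the bases printed.

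Serine, glycine and one-carbon metabolism, which supplies nucleotides and methyl groups, was lower in primed cells in 27 of 32 genes at any size, with 11 called lower and 2 higher. Tdh, the threonine dehydrogenase on which naïve mouse cells rely, had 277 and 267 CPM in naïve cells and 30.6 and 26.2 CPM in primed cells, and it was at 0 in MEFs. Psat1, of serine synthesis, had 415 and 428 CPM against 124 and 117 CPM, Mthfd2, the mitochondrial folate enzyme, had 131 and 128 CPM against 40.0 and 40.2 CPM, and Shmt2 fell by 1.06. All 11 genes of the serine, glycine and threonine group passed the test as lower, and Gldc, which cleaves glycine, fell by 0.74. MEFs had 331 CPM of Psat1 and 170 CPM of Mthfd2, more than primed cells, and 0.85 CPM of Gldc. Folr1, a folate receptor, had 24.8 and 21.6 CPM against 3.33 and 3.55 CPM.

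Genes of cell growth were shifted down by amounts that depend on the scaling. With library size alone the median of each of 93 lists and families moved up by about 0.20 on the log2 scale, which leaves −0.22 for cytoplasmic ribosomal proteins, −0.65 for ribosome biogenesis, −0.53 for chaperones and −0.50 for replication in place of the medians with TMM, −0.42, −0.85, −0.74 and −0.70. Of 80 cytoplasmic ribosomal protein genes, 77 passed the test as lower and only 4 changed by at least 2-fold, with a median log2 fold change of −0.42, and they summed to 78878 and 78011 CPM in naïve cells and 55906 and 57544 CPM in primed cells. Processed pseudogenes share sequence with these genes, so single values are uncertain. All 36 ribosome biogenesis genes passed the test as lower (12 called) with a median of −0.85, and their sum was 10558 and 10495 CPM against 5216 and 5245 CPM. Ncl, nucleolin, had 2547 and 2549 CPM against 963 and 992 CPM. Of 26 chaperones 23 passed the test as lower, among them all 8 subunits of the CCT chaperonin, and Hsp90aa1 had 5422 and 5207 CPM against 1850 and 1890 CPM. The inducible Hspa1a had 84.6 and 88.5 CPM against 6.36 and 6.43 CPM and its near-identical neighbour Hspa1b fell by 2.65, values that shared reads could mix.

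Replication and mitosis genes followed the same direction. Of 30 replication licensing and fork genes 27 passed the test as lower and 7 were called, with Pola1, a subunit of DNA polymerase alpha, at 88.4 and 84.2 CPM against 33.2 and 32.1 CPM. Of 30 mitosis genes 27 passed the test as lower with none past 2-fold, as Ccnb1 at 428 and 428 CPM against 243 and 253 CPM shows. Mki67, a proliferation marker, had 269 and 260 CPM against 281 and 293 CPM, a rise of 0.15, so the decrease did not extend to every gene of dividing cells. Ccne1, the cyclin of S phase entry that naïve cells hold high, had 237 and 234 CPM against 60.1 and 59.6 CPM, and the inhibitors Cdkn2b and Cdkn1c rose by 2.65 and 1.38, with MEFs at 66.6 and 403 CPM of these. Mycn had 358 and 354 CPM against 87.2 and 91.6 CPM and Mycl 23.7 and 23.1 CPM against 56.8 and 54.5 CPM, whereas Myc was at 32.8 and 30.9 CPM against 29.6 and 31.8 CPM and did not pass the test. Of 21 cholesterol synthesis enzymes 2 passed the test and none was called, with Hmgcs1 at 260 and 254 CPM against 258 and 270 CPM.

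**Figure D4:**
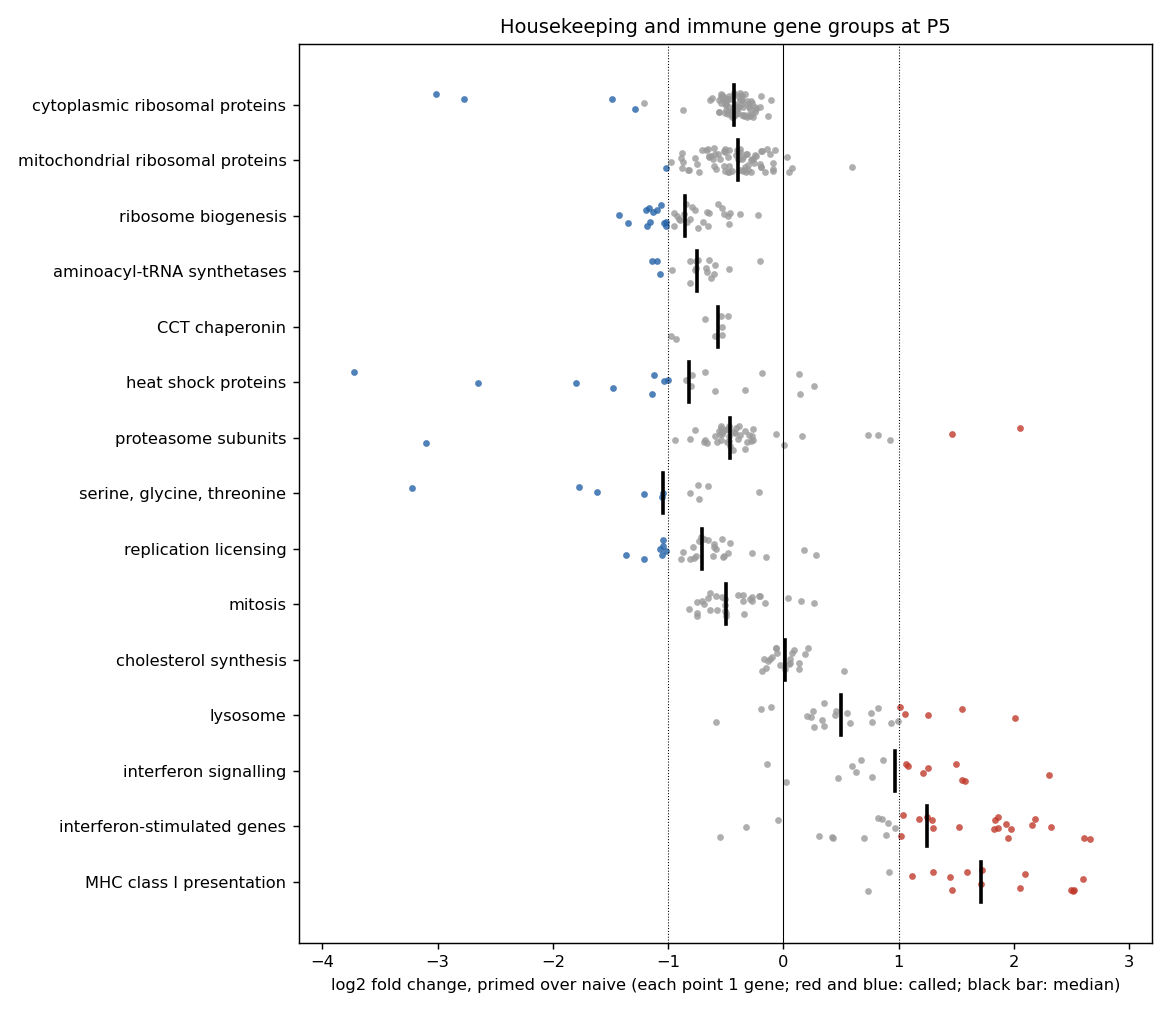
Log2 fold change, primed over naïve, of every tested member of housekeeping and immune gene groups at P5 (1 point per gene, red and blue for called genes, black bar for the median, dotted lines at 2-fold). Ribosomal protein genes lie in a narrow band about −0.42, ribosome biogenesis genes about −0.85, cholesterol synthesis about 0.02 and MHC class I presentation about 1.71.

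Lysosome and metal genes moved otherwise. Of 24 lysosomal genes 21 passed the test as higher and 5 were called, with a median of 0.50. Their sum was 3673 and 3720 CPM in naïve cells, 5846 and 5929 CPM in primed cells and 6030 CPM in MEFs. None of the 24 had a MEF level below 0.1 times that of the higher state. Ctsl, cathepsin L, had 305 and 293 CPM against 845 and 864 CPM. Npc1, which exports lysosomal cholesterol, had 66.0 and 71.1 CPM against 157 and 162 CPM. MEFs had 346 CPM of Ctsl and 52.2 CPM of Npc1. Tfeb, a transcription factor of lysosomal genes, had 27.8 and 29.9 CPM against 7.21 and 6.88 CPM, so factor and targets were high in opposite states. Tfrc, the transferrin receptor that brings iron in, had 293 and 282 CPM against 83.5 and 80.1 CPM and Fth1, the ferritin chain that stores it, had 544 and 539 CPM against 1104 and 1167 CPM. The metallothionein Mt1, which binds zinc, had 539 and 540 CPM against 228 and 239 CPM while the importer Slc39a8 was far higher. The glutathione peroxidase Gpx4, which guards lipids from oxidation, fell by 1.49.

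Chromatin regulators changed in a few members. Dnmt3l, the cofactor of de novo methylation, had 223 and 211 CPM in naïve cells against 33.0 and 31.4 CPM in primed cells, whereas the enzyme Dnmt3b had 293 and 289 CPM against 390 and 402 CPM and Dnmt3a fell by 0.40. Of the TET enzymes, which oxidise methylcytosine, Tet1 had 484 and 457 CPM against 95.5 and 94.0 CPM and Tet2 fell by 1.47, while Tet3 had 15 and 15.6 CPM against 51.1 and 49.8 CPM, at 108 CPM in MEFs. Of 12 PRC2 genes 9 passed the test as lower and 2 as higher, and 4 were called lower and 1 higher. Epop, a PRC2 partner of pluripotent cells, had 160 and 161 CPM against 34.5 and 32.2 CPM, and the catalytic subunit gene Ezh2 fell by 0.85. Phc1 and Phc2, paralogues of PRC1, moved in opposite directions, at 552 and 578 CPM against 208 and 214 CPM for Phc1 and 47.9 and 45.6 CPM against 124 and 117 CPM for Phc2. Trim28, the corepressor that silences retrotransposons, had 1598 and 1612 CPM against 672 and 658 CPM. The medians of the DNA methylation and Polycomb lists were −0.11 and −0.11 and turned to 0.10 and 0.09 with library size alone.

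Germ cell genes, many of which DNA methylation silences in somatic cells, were lower in 19 of 30 and higher in 1, with a median of −2.0. Tex19.1, which restrains retrotransposons in germ and stem cells, had 58.6 and 57.9 CPM in naïve cells against 4.72 and 4.88 CPM in primed cells. Mael, of the piRNA pathway, had 12.4 and 13.5 CPM against 1.69 and 1.72 CPM, and Ddx4, the germ cell helicase, had 27.1 and 25.7 CPM against 2.24 and 2.16 CPM. Naïve and primed values did not overlap in these 3 genes, which the rule that chose Tex19.1 and Ddx4 already implies. MEFs had no count of Tex19.1 or Mael and 1.53 CPM of Ddx4. Of 39 imprinted genes 12 were called higher and 1 lower. The paternally expressed Peg3 had 128 and 120 CPM against 596 and 606 CPM with 1029 CPM in MEFs, and Nnat had 12.1 and 10.5 CPM against 81.1 and 82.5 CPM with 33.2 CPM in MEFs. Phlda2, which limits placental growth, had 77.3 and 77.2 CPM against 13 and 10.5 CPM, and H19 was at 1007 and 1021 CPM against 999 and 1012 CPM and did not pass the test. The 18 maternally expressed genes of the list summed to 2364 and 2368 CPM in naïve cells and 3005 and 3005 CPM in primed cells. Their sum was 15894.5 CPM in MEFs, and the part of feeder RNA in the level of H19 was not tested. Xist, the RNA of X inactivation, had 21.1 and 19.7 CPM against 40.6 and 42.7 CPM with 190 CPM in MEFs. The library kit does not mark strand, so its reads cannot be told apart from those of the antisense Tsix. Of 5 genes of the X-inactivation centre 2 were called higher and 1 lower. Together the 5 genes summed to 307 and 297 CPM in naïve cells and 194 and 205 CPM in primed cells. The 4 Y-linked genes of the list summed to 55.3 and 58.1 CPM in naïve cells, 69.1 and 64.6 CPM in primed cells and 106 CPM in MEFs. None of the Y-linked genes was called, and X inactivation itself was not tested.

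Families were also taken by name. Of 14 Klf genes 7 were called lower and 1 higher, of 17 Sox genes 8 higher and 1 lower, of 38 Fox genes 14 higher and 4 lower, and of 5 Gata genes 4 higher. The 371 Zfp zinc finger genes had 27 called higher and 31 lower, below the background in the first case and near it in the second. Of 52 histone genes 18 were called lower and 3 higher, with a median of −1.13, though many are near-identical copies without a poly(A) tail, which libraries of poly(A) RNA capture poorly. Of 614 processed pseudogenes 86 were called lower (14%) and 9 higher (1.47%), and of 961 lncRNA genes 124 were called lower (12.9%) and 162 higher (16.9%). The lncRNA Halr1, transcribed beside the Hoxa genes, had 13.6 and 11.4 CPM in naïve cells against 1.34 and 0.78 CPM in primed cells. Cytochrome P450 genes had 9 of 29 called higher (31.0%) and 1 lower, and Rab GTPase genes 11 of 65 higher (16.9%), near the 13.5% of all genes, and none lower.

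The P5 differences were set beside those at P15. When all 8 libraries other than MEFs were fitted together, the difference between the P15 and the P5 effect passed an adjusted p of 0.01 with a size of at least 1 on the log2 scale in 1212 of 16926 genes (7.16%, edgeR's interaction test). Fosb was called lower at P5, with 3.13 and 3.27 CPM in P5 primed cells. In P15 primed cells it had 103 and 111 CPM, still below the 656 and 635 CPM of naïve P15 cells. Fos had 14.1 and 14.3 CPM in P5 primed cells against 236 and 256 CPM in P15 primed cells. Both genes were thus lowest in the P5 primed libraries. Zfp42 (Rex1) moved the other way, from 17.6 and 17.0 CPM in P5 primed cells to 0.23 and 0.23 CPM at P15, and Nr0b1, an Oct4 cofactor, from 6.56 and 4.83 CPM to 0.40 and 0 CPM, with naïve levels of 232 and 227 CPM and 100.5 and 101 CPM at P15. Both genes were thus lower in primed cells at P15 than at P5. Klf2 had a difference of −0.12 that did not pass the test. Of the increased genes, Cer1, Fgf5 and T did not pass the test of a difference between passages, whereas Foxa2 was 2.40 further apart and Mmp3 1.70 further apart at P15. Foxa2 had only 0.15 and 0.26 CPM in naïve P15 cells, where 3 counts equalled 0.22 and 0.19 CPM, so the size of its difference is imprecise.

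**Figure D5:**
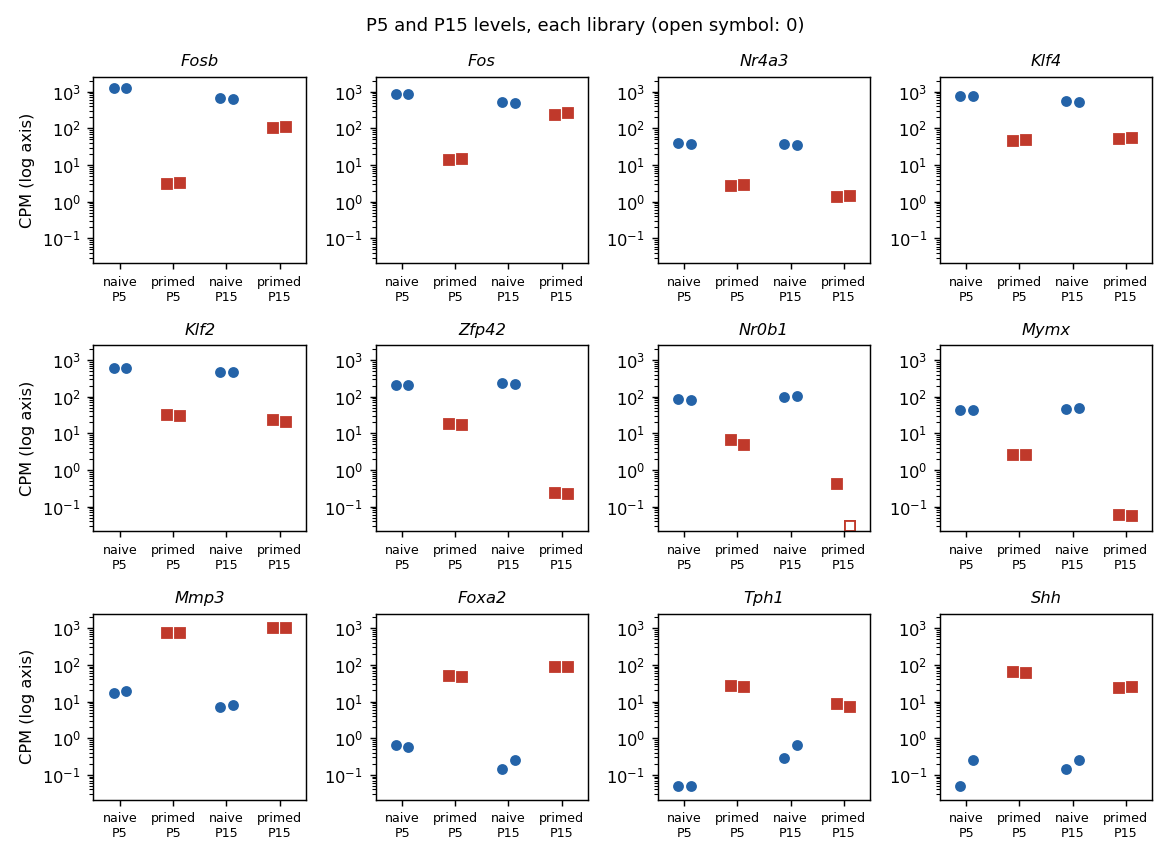
CPM on a log axis of 12 genes in the naïve (blue circles) and primed (red squares) libraries at P5 and P15, 2 per group, with an open symbol for 0. Fosb and Fos are lowest in the P5 primed libraries, at 3.13 and 3.27 CPM and 14.1 and 14.3 CPM, while Zfp42 and Nr0b1 are lowest in the P15 primed libraries.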

How the data were processed

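Poly(A) RNA of 9 libraries was sequenced on an Illumina HiSeq. Raw gene counts were deposited, which the authors made by trimming with Cutadapt, alignment with HISAT2 to mm10 and counting with featureCounts on an Ensembl annotation, and the submitters' processing notes also name DESeq2. The annotation release and the treatment of strand and of reads with several alignments are not given in the sources used here. Of 54232 gene IDs, 54165 were named with GENCODE M21, and 92 spike-in entries with 0 counts were left out. The 4 P5 libraries were compared by edgeR 4.0.16 (R 4.3.3, limma 3.58.1) with the quasi-likelihood test, two-sided, after TMM scaling, on genes that reached 10 counts in 2 or more libraries, with Benjamini-Hochberg adjustment over all 16482 genes. The state by passage interaction was tested over 16926 genes of 8 libraries. The MEF library entered no fit. DESeq2 1.42.0, other scalings, no filter, a replicate block, and leaving out each library were alternatives. The P5 test was checked on simulated data.

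Gene lists were written by hand or taken by symbol, and the members and lists were chosen with earlier results of these data known. The genes named were the 15 protein-coding genes with the largest change in each direction (at least 20 CPM and a MEF level below 0.1 times the higher state) and the leading lncRNA genes by the same rule, key genes of each list whatever their outcome, and the 3 called members of each list with the largest change in each direction at 5 CPM or more. Genes off in one state, genes with printed promoters, Ccl2 and Hsp90aa1 were named after their values were seen. Results of a few genes that these rules name are not reported here. A gene-level difference says nothing of isoforms, and reads of near-identical copies may be split or lost by the counting.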

Additional observations from a re-analysis of the deposited data

Results flagged for a closer look

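For 18 of the 37 genes named for the size of their change at P5, the effect of the state differed between passages by edgeR's interaction test (adjusted p under 0.01), given here as the P15 minus the P5 log2 fold change. Differences above 0, where the primed level was less far below or further above the naïve level at P15, were 6.04 for Fosb, 4.83 for Fos, 2.40 for Foxa2, 1.70 for Mmp3 and 0.63 for Klf4. Differences below 0 were −6.94 for the lncRNA Gm46332, −6.35 for Zfp42, −5.49 for Mymx, −5.09 for Nr0b1, −4.83 for Tph1, −4.28 for Pla2g1b, −3.67 for Ddx4, −3.60 for Gm17067, −2.69 for Hsd17b14, −2.51 for Tex19.1, −1.55 for Nphs1, −1.24 for the lncRNA Halr1 and −0.91 for Nr4a3. Tph1 had 0.05 and 0.05 CPM in naïve P5 cells and 0.29 and 0.64 CPM in naïve P15 cells, while primed cells had 25.9 and 24.9 CPM at P5 and 8.32 and 7.27 CPM at P15, so both states moved. In the P15 primed libraries Gm46332 had no count and Mymx and Pla2g1b had at most 0.12 CPM, which is under 3 counts, so the size of their difference depends on the prior count. Nr0b1 (0.40 and 0 CPM), Ddx4 (0.23 and 0.06 CPM), Gm17067 (0.34 and 0.11 CPM) and Zfp42 (0.23 and 0.23 CPM) were near that limit in the same libraries, so their differences are imprecise too. The same holds for Foxa2, which was near the limit in the naïve P15 libraries (0.15 and 0.26 CPM).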

How the results depend on the processing

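The 3680 called genes (2222 higher, 1458 lower) became 3053 (1847 and 1206) with DESeq2's Wald test, 3668 with DESeq2 size factors, 3946 (2863 and 1083) with library size alone, 3285 (1977 and 1308) without the low-count filter and 3644 in the fit of 8 libraries. Without 1 library each in turn, higher calls ranged from 1771 to 2139 and lower calls from 1161 to 1399, and both lowest counts were those without primed replicate 1. Among genes with a MEF level below 0.1 times the higher state, 1191 of 1875 were called, 524 higher and 667 lower, a filter that uses the compared levels. The replicate block gave 3663 calls, and it changed no call of the 521 genes named. Same-numbered libraries did not deviate together (correlation −0.08 over 16482 genes), so the block rests on shared numbers only. The 1212 differences between passages became 1164 with a replicate block (added after the data were seen), 1300 with library size alone and 1215 with DESeq2 size factors, and 1008 to 1172 without 1 library.

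With library size alone the log2 fold change turned positive for Ago2 (0.0758), Ccng1 (0.10), Epcam (0.17), Igfbp2 (0.20), Kdm6a (0.19) and Lamp1 (0.0915). Calls were lost in 44 of 521 named genes under at least 1 alternative, 31 of them with library size alone, and 15 genes gained one. The same scaling raised the median of all 93 lists and families, by about 0.20 each, and 17 of them changed sign, with medians between −0.19 and −0.03 under TMM, among them LIF and STAT3, FGF and ERK, Notch, DNA methylation, Polycomb, hypoxia and collagens. With 2 libraries per state of 1 line, genes under about 1 CPM have few counts, and the spread between lines was not measured.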
